A study of Komagataella phaffii with 32 samples.

Results

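The comparison described here set the rim101 mutant of the yeast Komagataella phaffii (formerly Pichia pastoris) beside the wild type (WT) after 30 min at pH 8.0. It rests on 5 of the 32 RNA-seq libraries of the study: 3 of WT (strain X-33) and 2 of rim101 (strain PJA-007, genotype rim101_117, an X-33 derivative). The members were the libraries whose labels give these strains and this time, called T30. Both strains had been grown in rich medium with glycerol, spun down and resuspended in the same medium with the buffer TAPS at pH 8.0. Libraries taken at once after resuspension at pH 5.5 (T0), and after 15 and 60 min at pH 8.0 (T15 and T60), are used where stated, with 3 WT and 2 rim101 libraries each. The remaining libraries are of a crz1 mutant (PJA-001, genotype crz1_559), of which the 3 at T30 are set beside some values. PJA-007 is 1 strain, so what belongs to the mutated factor and what belongs to this isolate cannot be told apart. The series text names GS115 as the wild type where the sample labels name X-33. The labels do not say whether libraries of a group came from separate cultures, so the p-values measure the spread between libraries, which may be technical.

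Rim101 is a zinc finger transcription factor of the fungal alkaline pH pathway, known as PacC in Aspergillus nidulans. In Saccharomyces cerevisiae a plasma membrane sensor and parts of the ESCRT machinery lead to proteolytic cleavage of Rim101 in alkaline medium, and the cleaved protein represses other genes, among them the repressor gene NRG1. Alkaline medium makes iron, copper, zinc and phosphate harder to obtain and removes the proton gradient that many transporters use, so transporter genes are classic readouts of this response. In yeast, PHO89 and the ENA sodium pumps are well known genes of alkaline stress.

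Levels are deposited RPKM, that is, reads divided by gene length and by library depth. A gene was called where limma gave an adjusted p under 0.05 and a difference of at least 2-fold on the scale log2(RPKM + 1). In all, 4226 of the 5040 genes were tested. Many genes are listed at exactly 0 in a library, 837 to 1039 in each of the 5, although only 10 to 34 genes per library lie above 0 and at or under 3 reads. In 56 cases a gene is at 0 in some WT T30 libraries and above 20 RPKM in another, against 3 such cases in rim101, so a 0 can be a failed estimate. A gene with a group at 0 is therefore given as listed at 0, by library and with no fold. The fit still takes each 0 as a value, so the p of such a gene rests on it.

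The 5 libraries differed in composition, and the difference partly follows the strains. Across the study 9 libraries had a median of 46.6 to 56.6 RPKM over tested genes, with 5.48% to 7.48% of reads in their 5 most abundant genes. The other 23 had a median of 21.01 to 35.4 RPKM and 9.35% to 17.01% of reads there. At T30 both rim101 libraries (56.6 and 48.1 RPKM) and WT replicate 1 (51.5 RPKM) were of the higher-median type, and WT replicates 2 and 3 (35.4 and 27.1 RPKM) were not. Across genes, WT replicate 1 correlated with the rim101 libraries at 0.944 and 0.949 and with the other WT libraries at 0.906 and 0.859. Steps between low values put the depth at 6.53, 6.41 and 7.71 M reads in WT and 9.13 and 6.35 M reads in rim101. The values of rim101 replicate 1 had steps of 2 sizes, equal to 5.43 and 3.70 M reads if they are an equal mean of 2 read sets. The median difference of all tested genes was 0.41 on the log2 scale, against 0.03 after median-ratio scaling and -0.0056 after quantile normalization. Calls are therefore also given with both scalings and against WT replicate 1 alone. With library type as a term in the fit, 43 genes were lower and 30 higher, and 57 of these 73 were among the 64 called without it.

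**Figure D1:**
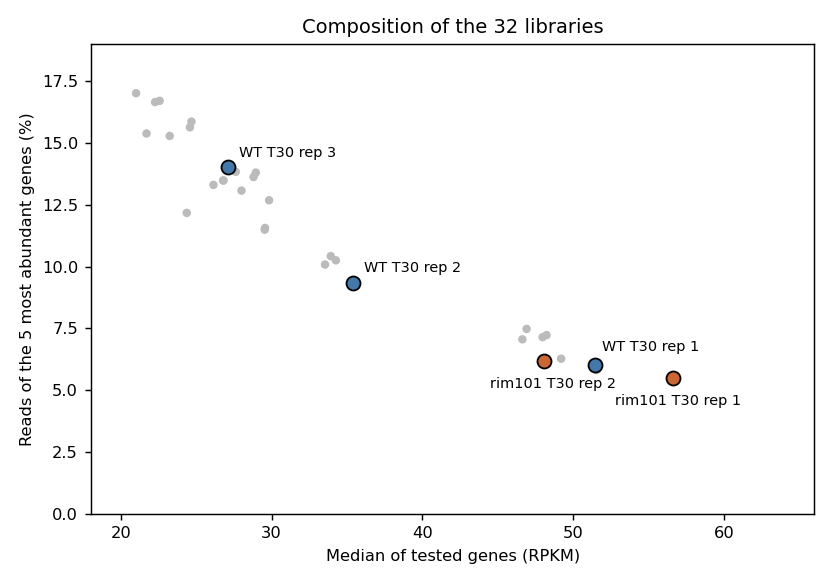
Composition of all 32 libraries: the median level of the tested genes in RPKM (x axis) against the share of reads, in percent, taken by the 5 most abundant genes (y axis). Blue points are WT T30, orange points rim101 T30 and grey points the other libraries; WT T30 replicate 1 lies near both rim101 libraries, at 51.5 RPKM and 6%, and WT T30 replicates 2 and 3 lie apart from it.

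The mutated gene itself had less mRNA in rim101 at T30, which alone does not verify the genotype. RIM101 (PAS_chr3_0625, chromosome 3, 1185885 to 1187711, in coordinates of the deposited table, whose build no source used here names) had 143, 135 and 120.4 RPKM in WT and 42.1 and 24.3 RPKM in rim101. The groups did not overlap, and the log2 difference was -2.01 (SE 0.26, adjusted p = 1.25e-05), a 4.04-fold lower level. RIM101 mRNA rose with alkalinization in WT, from 36.3 ± 13.8 RPKM at T0 (SD, n = 3), by 1.92 on the log2 scale (adjusted p = 2.28e-06). In rim101 it was 28.7 ± 3.85 RPKM at T0 (SD, n = 2) and its change of 0.16 did not pass (adjusted p = 0.643). At pH 5.5 the strains did not differ in this mRNA beyond the spread (log2 difference -0.26, adjusted p = 1). The mRNA that remains does not tell whether the counted span lies inside or outside the lesion.

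At 30 min of pH 8.0, 37 genes were lower and 27 higher in rim101, which is 0.876% and 0.639% of the genes tested and 1.51% together. In the mutant the phosphate symporter PHO89, the zinc genes ZRT1 and ZPS1, the sodium pump ENA2 and the wall genes GAS1-2 and YPS1-2 were lower. The phosphate transporter copies PHO84-1 and PHO84-2, the iron uptake genes FRE3, FRE2-1, FTR1 and FET3 and the wall gene GAS1-1 were higher. All 64 genes past the adjusted p were also past 2-fold, and 374 genes had an unadjusted p under 0.05. With both other scalings 32 of the 37 and 24 of the 27 held. The 2 rim101 libraries lay below all 3 WT libraries for 37 of the 37 and above them for 26 of the 27, where 279 and 979 of all tested genes did so. Set against WT replicate 1 alone, the WT library of matching composition, 36 of the 37 and 25 of the 27 differed by at least 2-fold, as did 3.29% and 4.73% of all genes tested. The calls had already used all 5 libraries, so this count and that of groups without overlap are descriptions. Leaving out each of the 5 libraries in turn, 18 of the 37 and 20 of the 27 passed in all 5 fits, and the lower genes numbered 22 without rim101 replicate 2. With WT replicates 2 and 3 left out, which is a fit chosen after the data were seen, 18 genes were lower and 19 higher, all among the 64. Fitted on the 2 groups alone, 21 were lower and 15 higher, and the calls of RIM101, BUB3, NHA1, SEO1-1, TMA10, GAP1, PAS_chr2-1_0189 and PAS_chr1-4_0370 were lost. In 33 of the 64 genes no compared library was at 0, while 13 lower genes were at 0 in both rim101 libraries and 12 higher genes were at 0 in all 3 WT libraries.

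**Figure D2:**
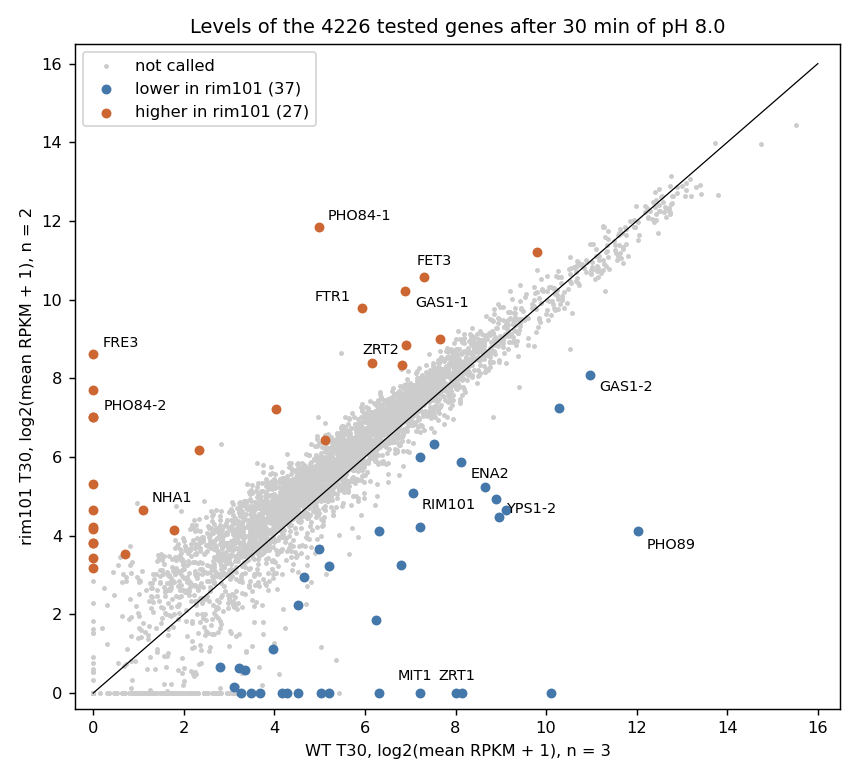
Mean level of each of the 4226 tested genes at T30 in WT (x axis, n = 3) and rim101 (y axis, n = 2), both as log2(mean RPKM + 1), with a line of equal levels. Blue points are the 37 genes called lower in rim101 and orange points the 27 called higher; points on an axis at 0 are genes listed at 0 in that strain, and the grey cloud lies mostly above the line, as the median difference of 0.41 gives.

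Phosphate transporter genes differed in both directions. PHO89 (PAS_chr2-1_0235, chromosome 2, 442707 to 444437), whose yeast counterpart is a sodium-coupled phosphate symporter that works at alkaline pH, stood at 3448, 4134 and 4953 RPKM in WT and at 21.6 and 11.3 RPKM in rim101. Every WT library was far above both mutant libraries, with a log2 difference of -7.95 (SE 0.52, adjusted p = 1.65e-10), or 248-fold. PHO84-1 (PAS_chr4_0337, chromosome 4, 689274 to 691001), a copy of the proton-coupled high-affinity phosphate transporter, went the other way. It stood at 22.3, 37.0 and 32.7 RPKM in WT and at 3972 and 3364 RPKM in rim101, a log2 difference of 6.88 (SE 0.71, adjusted p = 2.89e-07). PHO84-1 in the mutant was thus at a level per length close to that of PHO89 in WT, with means of 3668 ± 430.0 RPKM (SD, n = 2) and 4178 ± 753 RPKM (SD, n = 3).

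The other copy, PHO84-2 (PAS_chr3_0141), was listed at 0 in all 3 WT libraries and stood at 134 and 122 RPKM in rim101 (adjusted p = 4.82e-12). At T0 it was at 159.7 ± 39.0 RPKM in WT (SD, n = 3) and 201 ± 19.2 RPKM in rim101 (SD, n = 2), so the difference at T30 goes with its fall to a listed 0 in WT. No source used here says how reads shared by the copies were counted. PHO5, an acid phosphatase of the cell surface named here after its values were seen, was at 77.7, 72.2 and 62.3 RPKM in WT and at 365 and 300.4 RPKM in rim101 (log2 difference 2.22, SE 0.34, adjusted p = 0.000167).

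Among regulators of the pathway, PHO2, a homeobox factor that works with Pho4 in S. cerevisiae, was at 24.5, 20.4 and 27.4 RPKM in WT and at 9.98 and 3.44 RPKM in rim101 (log2 difference -1.84, adjusted p = 0.0364), and was also named after its values were seen. That call was lost in 4 of the 5 fits with a library left out, with an adjusted p = 0.592 without rim101 replicate 2. PHO81, the inhibitor of the phosphate cyclin kinase, was at 87.0, 50.7 and 36.9 RPKM in WT and at 81.0 and 50.3 RPKM in rim101 (log2 difference 0.22, adjusted p = 0.792). Of the 15 phosphate genes tested, 2 were lower and 3 higher, as were 0.876% and 0.639% of all genes tested. The list's median difference was 0.55 against 0.41 over all genes tested.

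A pair of neighbouring zinc genes was listed at 0 in the mutant. ZRT1 (PAS_chr3_0516, chromosome 3, 989382 to 990959), the high-affinity zinc transporter, stood at 197, 228 and 349 RPKM in WT and was listed at 0 in both rim101 libraries (adjusted p = 1.27e-06). ZPS1 (PAS_chr3_0517), a cell surface protein whose Candida albicans homologue Pra1 binds zinc, was at 204, 243 and 392 RPKM in WT and listed at 0 in both rim101 libraries (adjusted p = 9.71e-08). The genes are neighbours on opposite strands, transcribed away from each other, with 558 bases between their spans. In both, WT replicate 1, the WT library most like the mutant in composition, was the lowest of the 3. ZRT2, the low-affinity zinc transporter, chosen after its values were seen, differed the other way. It was at 102, 117 and 116 RPKM in WT and at 334 and 316 RPKM in rim101, without overlap (log2 difference 1.54, SE 0.18, adjusted p = 4.4e-06).

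Genes of iron uptake differed in both directions. FRE3 (PAS_chr4_0240, chromosome 4, 486364 to 488484), a ferric reductase described as acting on siderophore-bound iron, was listed at 0 in all 3 WT libraries and stood at 446 and 336 RPKM in rim101 (adjusted p = 4.25e-14). FRE2-1 (PAS_chr4_0399), another ferric and cupric reductase, was likewise at 0 in WT and at 147 and 109 RPKM in rim101 (adjusted p = 6.78e-09). Both reductases were also listed at 0 in all 3 crz1 libraries at T30 and in all 5 WT and rim101 libraries at T0.

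The permease and oxidase of high-affinity iron uptake were measured in both strains. FTR1, the permease, was at 103, 53.2 and 23.0 RPKM in WT and at 929 and 824 RPKM in rim101 (log2 difference 4.09, SE 0.66, adjusted p = 0.000366). Its WT values follow the composition, highest in replicate 1, and with WT replicates 2 and 3 left out the difference of 3.07 did not pass (adjusted p = 0.144). With the library type term the difference of 3.13 passed (adjusted p = 1.79e-05). FET3, the multicopper oxidase that works with Ftr1 in yeast, was at 108, 223 and 142 RPKM in WT and at 1607 and 1421 RPKM in rim101 (log2 difference 3.32, SE 0.40, adjusted p = 4.52e-06), and was chosen after its values were seen. Neither gene's groups overlapped.

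Other metal genes were lower or did not pass. FET4-1 (PAS_chr2-2_0009), a low-affinity iron transporter, was at 37.3, 26.4 and 31.8 RPKM in WT and listed at 0 in both rim101 libraries (adjusted p = 1.95e-08). The siderophore transporter SIT1-1 was at 375, 442 and 548 RPKM in WT and at 129.6 and 128 RPKM in rim101, which did not pass (log2 difference -1.79, adjusted p = 0.132). Copper transporter CTR1, with 3109, 1706 and 1367 RPKM in WT and 1618 and 2039.7 RPKM in rim101, overlapped between strains. Of 24 iron, copper and zinc genes tested, 3 were lower and 5 higher, as were 0.876% and 0.639% of all genes tested. The median difference of the list was -0.0032 against 0.41 over all genes. PAS_chr2-1_0270, outside the list and described as a plasma membrane protein of protoporphyrin uptake and heme efflux, was at 0 in WT and at 200.4 and 214 RPKM in rim101 (adjusted p = 3.55e-08).

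**Figure D3:**
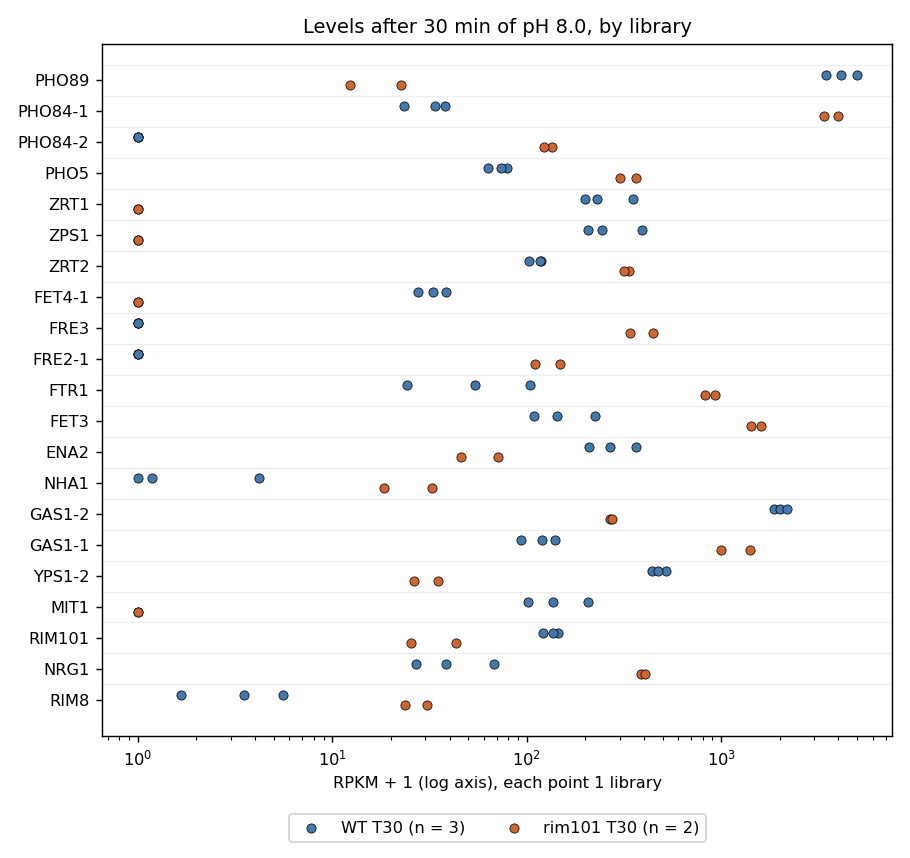
Level of 21 genes in each library at T30, plotted as RPKM + 1 on a log axis, with blue points for the 3 WT and orange points for the 2 rim101 libraries; a library listed at 0 lies at the left end, at 1. The strains do not overlap for any of these genes, and NRG1 and RIM8 (last 2 lines) did not pass the test.

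Sodium transport split between a pump and an antiporter. ENA2 (PAS_chr1-1_0428, chromosome 1, 1347055 to 1350324), a P-type ATPase that exports sodium, was at 363, 268 and 208 RPKM in WT and at 70.4 and 45.0 RPKM in rim101. The groups did not overlap (log2 difference -2.25, SE 0.27, adjusted p = 4.5e-06), and with the WT library of matching composition the gap was the widest, since WT replicate 1 was the highest of the 3. NHA1, a plasma membrane sodium-proton antiporter that depends on an acid exterior, was at 0, 0.178 and 3.21 RPKM in WT and at 31.4 and 17.3 RPKM in rim101 (log2 difference 3.84, SE 0.74, adjusted p = 0.00311). Without rim101 replicate 1 that call was lost (adjusted p = 0.12). The proton pump PMA1 was at 954, 1040.4 and 857 RPKM in WT and at 940.1 and 981 RPKM in rim101, with overlap (log2 difference 0.02, adjusted p = 0.942). Of 9 cation genes tested 1 was lower and 1 higher, as were 0.876% and 0.639% of all genes tested. The list's median difference was 0.22.

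In the cell wall a pair of neighbouring copies of GAS1, a glucanosyltransferase that elongates beta-glucan, differed in opposite directions. GAS1-2 (PAS_chr1-3_0227, chromosome 1, 423294 to 424901) had 1864, 1992 and 2172 RPKM in WT and 265 and 274 RPKM in rim101 (log2 difference -2.89, SE 0.21, adjusted p = 7.23e-10). GAS1-1 (PAS_chr1-3_0226, chromosome 1, 420955 to 422571), on the same strand 722 bases before it, was at 92.3, 119 and 138 RPKM in WT and at 1398 and 994 RPKM in rim101 (log2 difference 3.35, SE 0.27, adjusted p = 6.97e-09). WT thus had more GAS1-2 than GAS1-1 per length at T30 in every library, and both rim101 libraries had more GAS1-1 than GAS1-2. At T0 the WT means were 492 ± 60.0 RPKM for GAS1-2 and 614 ± 77.6 RPKM for GAS1-1 (SD, n = 3).

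The aspartic protease gene YPS1-2 (PAS_chr3_1157), whose yeast counterparts are yapsins anchored at the cell surface, was at 521, 437 and 469 RPKM in WT and at 34.0 and 25.2 RPKM in rim101 (log2 difference -3.97, SE 0.23, adjusted p = 1.03e-11). The copy YPS1-1 was at 292, 312 and 386 RPKM in WT and at 350.0 and 301 RPKM in rim101, with overlap. The glucan synthase FKS1 was at 265, 285 and 256 RPKM against 301 and 296 RPKM (log2 difference 0.15, adjusted p = 0.477). Of 37 wall genes tested, 2 were lower and 1 higher, as were 0.876% and 0.639% of all genes tested. The list median was 0.0094. PAS_chr1-4_0410, described as a positive regulator of mannosylphosphate transfer, was listed at 0 in WT and stood at 45.4 and 32.3 RPKM in rim101 (adjusted p = 2.78e-09).

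A stretch of chromosome 4 held 4 neighbouring genes that were all lower in rim101. PAS_chr4_0359, described as uncharacterized, was at 1402, 1031 and 898 RPKM in WT and listed at 0 in both rim101 libraries (adjusted p = 9.97e-09). PAS_chr4_0361, which carries the N-terminal domain of hyphally regulated cell wall proteins, was at 563, 475 and 458 RPKM in WT and at 33.7 and 9.03 RPKM in rim101 (log2 difference -4.74, SE 0.68, adjusted p = 5.73e-05). PAS_chr4_0363, uncharacterized, was at 79.9, 90.5 and 65.0 RPKM in WT and at 0 in both rim101 libraries (adjusted p = 4.87e-06). Between them PAS_chr4_0360, named for its place after its values were seen, was at 46.8, 82.9 and 93.8 RPKM in WT and at 1.37 and 3.88 RPKM in rim101 (adjusted p = 0.0114). It passed in only 2 of the 5 fits with a library left out, failing without either rim101 library and without WT replicate 3 (highest adjusted p = 0.294).

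MIT1 (PAS_chr3_0251), named so in the deposited table and described there as a cAMP-independent regulatory protein, was at 100.4, 135 and 206 RPKM in WT and listed at 0 in both rim101 libraries (adjusted p = 1.26e-08). It was placed in the methanol and peroxisome list by its symbol alone, and no other member tested was called. PAS_chr3_0017, with a domain of pyrroline-5-carboxylate reductases, was at 95.7, 114 and 122 RPKM in WT and at 6.11 and 10.8 RPKM in rim101 (log2 difference -3.60, SE 0.35, adjusted p = 1.26e-07). Both genes lay below every WT library in both mutant libraries.

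The amino acid permease GAP1 was at 104, 61.0 and 71.8 RPKM in WT and at 21.3 and 11.4 RPKM in rim101 (log2 difference -2.23, adjusted p = 0.0115). It missed the threshold without rim101 replicate 2 (adjusted p = 0.323) and without WT replicate 1 (adjusted p = 0.057). GAP1 was the 1 called gene of 17 permeases tested, where 1.51% of all genes tested were called. PAS_chr1-1_0085, a MARVEL domain protein, was at 49.0, 22.9 and 35.4 RPKM in WT and at 0 in rim101 (adjusted p = 0.000805). PAS_chr2-1_0189, described as needed for respiratory growth, was at 28.2, 12.4 and 10.6 RPKM against 0 and 0, and PAS_chr1-4_0370, a mitochondrial targeting protein, at 30.1, 43.0 and 34.1 RPKM against 1.77 and 15.2 RPKM. These last genes passed with all 5 libraries (adjusted p = 0.0038 and 0.00179), but neither passed without rim101 replicate 1, and PAS_chr2-1_0189 did not pass without rim101 replicate 2.

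Among the remaining higher genes were transporters of drugs and other compounds at low levels. YOR1-1 and YOR1-2, neighbouring copies of an ABC transporter of the plasma membrane named after their values were seen, were at 0 in all WT libraries. In rim101 they stood at 26.3 and 22.1 RPKM and at 7.82 and 8.40 RPKM. The drug transporter QDR3, also named afterwards, was at 0 in WT and at 14.5 and 11.5 RPKM in rim101 (adjusted p = 9.07e-08). SEO1-1, a probable transporter, was at 17.6, 28.2 and 0.652 RPKM in WT and at 154 and 144 RPKM in rim101 (log2 difference 3.96, adjusted p = 0.0215), a call lost without either rim101 library or without WT replicate 3 (highest adjusted p = 0.241). BUB3, of the kinetochore checkpoint, was at 6.89, 4.40 and 0.949 RPKM in WT and at 74.1 and 69.2 RPKM in rim101 (log2 difference 4.06, SE 0.69, adjusted p = 0.000656), and it did not pass with WT replicates 2 and 3 left out or with a pseudocount of 0.1. TMA10, on the chaperone list, was listed at 0 in WT and at 15.7 and 19.7 RPKM in rim101, and did not pass without rim101 replicate 2 (adjusted p = 0.0815). It was the 1 called gene of 23 tested on that list of chaperones and heat shock genes, where 1.51% of all genes tested were called. A place on the list does not make TMA10 a chaperone. Of the 37 lower genes 10 are described as uncharacterized, as are 3 of the 27 higher genes and 577 of the 4226 tested (27.0%, 11.1% and 13.7%).

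Further called genes, named here after their values were seen, belong to sensing, vitamin transport and the cell surface. SSK1, a response regulator of the yeast osmosensing pathway, was at 20.4, 21.0 and 24.8 RPKM in WT and at 4.84 and 2.53 RPKM in rim101 (log2 difference -2.34, adjusted p = 0.00567), a call lost without rim101 replicate 2 (adjusted p = 0.196). SNF3, a glucose sensor of the plasma membrane, was at 5.79, 6.42 and 5.83 RPKM in WT and at 1.15 and 0 RPKM in rim101 (adjusted p = 0.000713), and also failed without rim101 replicate 2 (adjusted p = 0.0974). THI7, a thiamine transporter, was at 151, 142 and 150.3 RPKM in WT and at 65.9 and 59.1 RPKM in rim101 (log2 difference -1.23, adjusted p = 0.000572), and passed without any 1 of the 5 libraries. PAS_chr2-1_0887, with a domain of PIR1-like wall mannoproteins, was at 840.4, 861 and 982 RPKM in WT and at 2603 and 2149.9 RPKM in rim101 (log2 difference 1.41, adjusted p = 4.29e-05). With median-ratio scaling its difference of 1.02 did not pass (adjusted p = 0.272). The uncharacterized PAS_chr1-1_0135, the third most abundant of the lower genes in WT, was at 808, 1482 and 1465 RPKM there and at 102 and 202 RPKM in rim101 (log2 difference -3.06, adjusted p = 0.00932). It did not pass without rim101 replicate 1 (adjusted p = 0.328).

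Other members of the Rim pathway did not pass, though some stood apart. NRG1, the repressor that Rim101 represses in S. cerevisiae, was at 25.8, 66.4 and 37.5 RPKM in WT and at 386 and 406 RPKM in rim101. The groups did not overlap, and the log2 difference of 3.27 (SE 0.87) had an adjusted p = 0.0609, while NRG1 passed at T15 (4.17, adjusted p = 0.00874) and T60 (3.80, adjusted p = 0.0161). RIM8, an arrestin-like protein of the sensing complex and a Rim101 target in S. cerevisiae, was at 0.661, 4.55 and 2.52 RPKM in WT and at 29.6 and 22.6 RPKM in rim101 (log2 difference 3.08, adjusted p = 0.114). With library type as a term in the fit, both passed (adjusted p = 0.000464 and 0.00135). RIM9, of the membrane sensor, was at 11.6, 7.75 and 9.52 RPKM in WT and at 10.9 and 7.82 RPKM in rim101. For RIM20, a scaffold of Rim101 cleavage, no level is given, because its deposited values equal those of MOD5, whose span overlaps it by 14 bases, in every library. NRG1, RIM8 and RIM9 were named after their values were seen.

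Most lists held no called gene. In 16 of the 24 lists no member was called, among them ESCRT sorting with 10 genes tested, calcium and calcineurin with 8, glycolysis with 15, the respiratory chain with 29, cytosolic ribosomal proteins with 75 and ribosome biogenesis with 100. With 1.51% of all genes called, a lack of calls in lists of these sizes lies near the background and does not set them apart. The medians of the last 2 were -0.13 and 0.42, against 0.41 over all genes. With median-ratio scaling they were -0.52 and 0.04, against 0.03.

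Most differences at 30 min had the same sign at 15 min and at 60 min, in other libraries. At T15, 37 of the 37 lower genes were below WT, as were 23.6% of all genes tested, and 15 were called, among 17 called lower there (0.402% of genes tested, 1.04% in both directions), which is 40.5% of the T30 genes and 88.2% of the T15 genes. Of the 27 higher genes 26 were above WT at T15, as were 76.3% of all, and 21 were called, among 27 called (0.639%), or 77.8% of each set. At T60 34 of the 37 and 25 of the 27 had the same sign, where 67.1% of all genes were below WT and 32.9% above, with 18 and 19 called among 32 (0.757%) and 33 (0.781%). These are 48.6% and 70.4% of the T30 genes and 56.2% and 57.6% of the T60 genes. The 65 genes called at T60 were 34 without rim101 replicate 1, 41 without rim101 replicate 2 and 170 without WT replicate 3. The median difference at T60 was -2.12 for the lower and 2.29 for the higher genes, against -0.28 over all genes. The imbalance of library types is reversed at T60, where 2 of 3 WT libraries and 0 of 2 rim101 libraries were of the higher-median type. Over all 4226 genes the differences at T30 correlated with those at T15 at 0.869 and with those at T60 at -0.226 (Pearson, across genes, which are not independent). The protocol draws the samples of 15, 30 and 60 min from each stressed culture, so libraries of different times may share a culture.

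**Figure D4:**
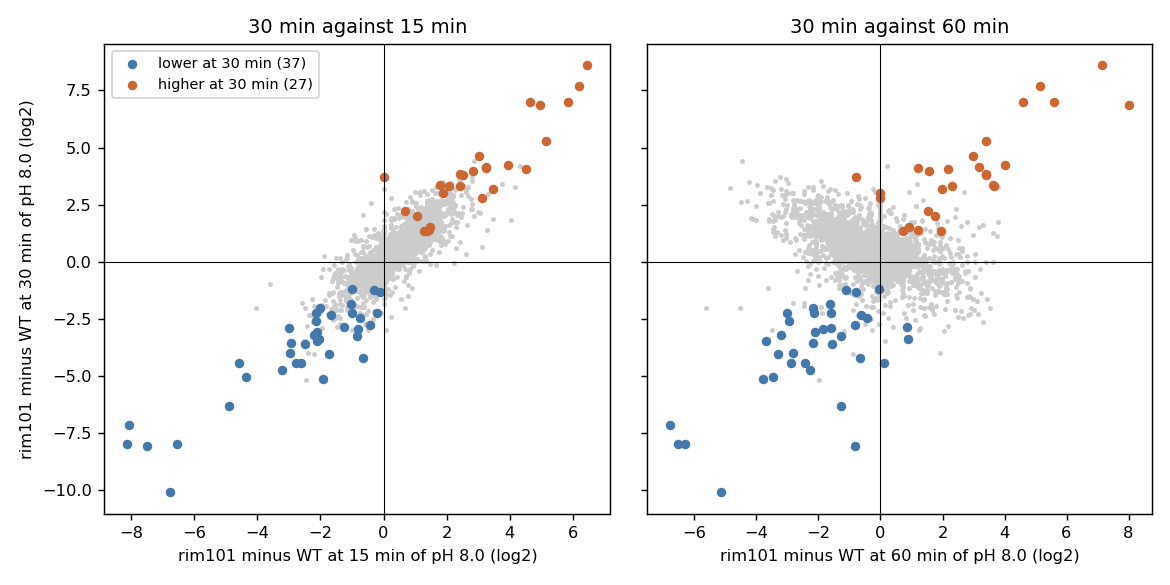
Difference between rim101 and WT on the log2(RPKM + 1) scale at 30 min (y axes) against 15 min (left) and 60 min (right), for 4226 tested genes in grey. Blue and orange points are the 37 lower and 27 higher genes of T30; the grey cloud tilts up at 15 min (0.869) and down at 60 min (-0.226), while 34 of the blue and 25 of the orange points have the same sign at 60 min as at 30 min.

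Before alkalinization 1 of the 64 differences passed, though the lower genes already lay mostly below WT. At T0 3 genes were lower and 2 higher in rim101 (0.071% and 0.0473%), and 1 of the 37 and 0 of the 27 T30 genes were among them. Of the 37 lower genes 29 were below WT at T0, as were 31.4% of all genes tested, with a median difference of -0.35 against 0.15 over all genes. Of the 27 higher genes 15 were above WT, as were 68.3% of all, with a median of 0.06. The called gene was PHO89, at 68.5, 265 and 222 RPKM in WT and at 26.1 and 24.5 RPKM in rim101 at T0 (log2 difference -2.61, adjusted p = 0.0457). For ENA2 the T0 means were 38.5 ± 4.19 RPKM in WT (SD, n = 3) and 20.9 ± 1.37 RPKM in rim101 (SD, n = 2), which did not pass (adjusted p = 0.767). No pH 5.5 library was taken at 30 min, so pH and time after resuspension cannot be told apart in any change from T0.

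The change from T0 of each strain is given side by side, since these comparisons share the T30 libraries. Over all genes tested, 2.72% fell and 17.2% rose at least 2-fold in WT (19.9% together). In rim101 3.74% fell and 19.9% rose (23.6% together). These shares are unscaled and partly follow library type. Of the higher-median type were 0 of 3 WT and 0 of 2 rim101 libraries at T0, against 1 of 3 and 2 of 2 at T30. The median change of all genes was 0.62 in WT and 0.85 in rim101. With median-ratio scaling it was 0.14 and 0.13, and with quantile normalization 0.04 and -0.0094. In WT, PHO89 changed by 4.69 (adjusted p = 1.27e-07) and in rim101 by -0.66 (adjusted p = 0.337). YPS1-2 rose by 3.68 in WT (adjusted p = 7.44e-12) and changed by 0.33 in rim101 (adjusted p = 0.264), and GAS1-2 rose by 2.03 (adjusted p = 2.63e-08) against 0.03 (adjusted p = 0.937). GAS1-1 dropped by 2.40 in WT (log2 change -2.40, adjusted p = 1.61e-07) and changed by 0.61 in rim101 (adjusted p = 0.102). FET3 fell in WT (-1.76, adjusted p = 0.000915) and rose in rim101 (1.87, adjusted p = 0.00538), while PHO84-1 did not pass in WT (-1.24, adjusted p = 0.143) and rose in rim101 (6.82, adjusted p = 1.4e-06). ENA2 rose in both, by 2.80 in WT (adjusted p = 1.7e-08) and 1.39 in rim101 (adjusted p = 0.00245). PHO5 also rose in both, by 2.27 (adjusted p = 8.85e-06) and 4.63 (adjusted p = 7.18e-09). The difference between the strains' changes was called for 0.331% of genes as lower in rim101 and for 0.45% as higher, or 0.781% together. That of ENA2 did not pass (-1.41, SE 0.38, adjusted p = 0.137), and that of PHO5 did (2.36, SE 0.48, adjusted p = 0.0113).

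**Figure D5:**
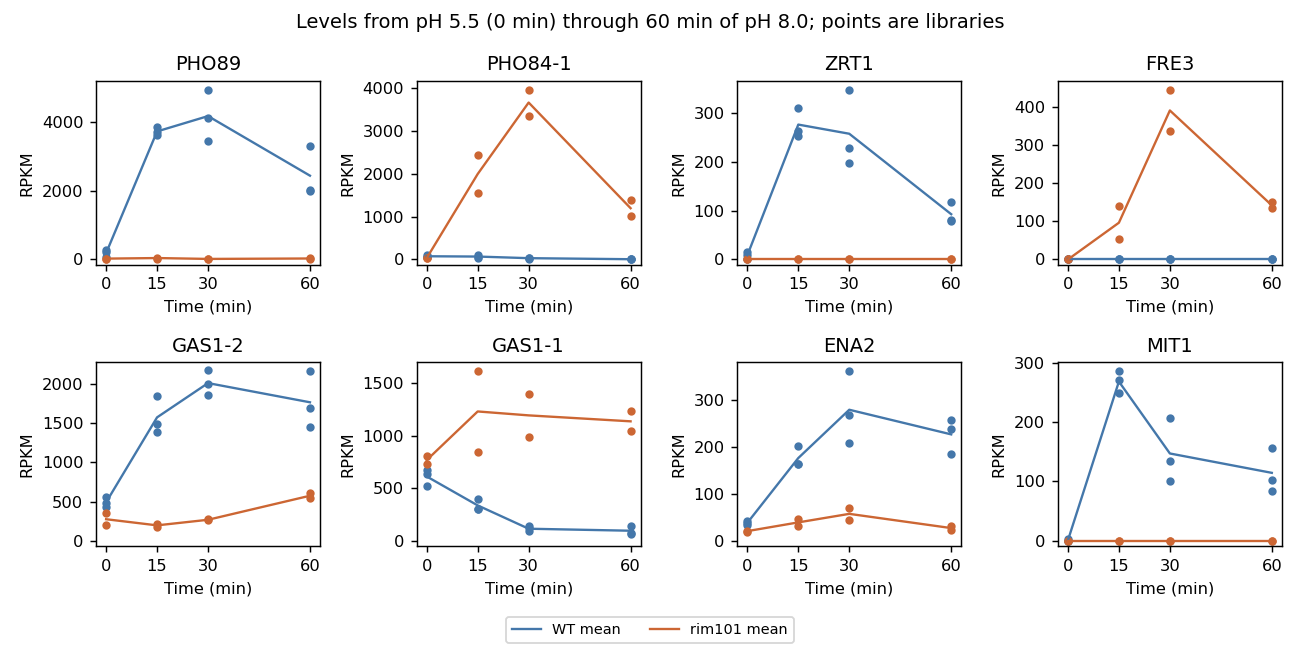
Levels of 8 genes in RPKM (y axes, linear) at 0 min (pH 5.5) and 15, 30 and 60 min of pH 8.0 (x axes), with blue for WT (n = 3) and orange for rim101 (n = 2); points are libraries and lines join the means. PHO84-1 and FRE3 peak at 30 min in the mutant with means of 3668 and 391 RPKM, while ZRT1 and MIT1 are listed at 0 in every rim101 library. Levels are unscaled, and 30 min is the only time at which both rim101 libraries were of the higher-median type.

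The time courses of these genes differed in shape. The rim101 mean of PHO84-1 was 32.5, 1998, 3668 and 1199 RPKM at 0, 15, 30 and 60 min, and that of FRE3 was 0, 96.5, 391 and 142 RPKM. In both genes the 2 libraries at 30 min lay above those of every other time. At T30 2 of 2 rim101 libraries were of the higher-median type, against 0 of 2 at T0, 1 of 2 at T15 and 0 of 2 at T60. These levels are unscaled, and the share of library type in the peaks was not tested. ZRT1 was listed at 0 in all 8 rim101 libraries and had WT means of 8.54, 277, 258 and 92.9 RPKM. The WT means of MIT1 were 1.06, 268, 147 and 115 RPKM, highest at 15 min. ZPS1 was no longer apart at 60 min, with 30.6 ± 16.6 RPKM in WT (SD, n = 3) and 15.5 ± 2.79 RPKM in rim101 (SD, n = 2; adjusted p = 0.537).

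The crz1 mutant, altered in the calcineurin-regulated factor Crz1, gives a level for these genes in a second mutant at the same time; it was not tested against rim101. PHO89 was at 3559.9, 5019.99 and 4666 RPKM in the 3 crz1 libraries at T30 and PHO84-1 at 52.3, 31.8 and 33.6 RPKM. ZRT1 was at 267, 438 and 355 RPKM there, GAS1-2 at 1242, 1568 and 1536 RPKM, GAS1-1 at 63.6, 73.0 and 67.0 RPKM and ENA2 at 320.4, 221 and 251 RPKM. For each of these genes all 3 crz1 libraries lay on the WT side of both rim101 libraries.

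The authors' deposited table gives log2 fold changes of each group over WT T0, from which the difference of rim101 and WT at T30 can be formed. In the authors' deposited table this difference was -8.37 for PHO89, 6.41 for PHO84-1, -3.40 for GAS1-2, 2.91 for GAS1-1 and -2.60 for ENA2. Its median over 4419 genes was 0.0252, and it had the sign given here for 63 of the 63 called genes with both values in the authors' deposited table. Those values come from the same libraries as the calls, so the shared sign is no independent evidence.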

How the data were processed

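Poly-A RNA of K. phaffii was sequenced from non-directional libraries, per the labels' protocols, so strand is lost where genes overlap. No called gene's span overlaps another, but 144 genes have values equal to those of another gene in every library. None of them was called; among list members they are RIM20, UTP21, CDC19, HSP31, GSH2 and GTT1. The authors deposited RPKM on a linear scale for 5040 genes, and a table of log2 fold changes over WT T0 with p-values and FDR, from which the deposited log2 values alone are quoted. Bowtie2 and edgeR are listed, without versions, in the submitters' processing notes; build and counting rule are not given in the sources used here. All 5040 locus tags matched the reference table of names, with equal start and end.

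Here log2(RPKM + 1) was fitted with limma 3.58.1 (R 4.3.3, trend, two-sided moderated test) over all 12 groups and 32 libraries with 20 residual degrees of freedom, since 2 rim101 libraries give little spread of their own. The filter asked for a mean of at least 1 RPKM across the 32 libraries, and p-values were adjusted by Benjamini-Hochberg over the 4226 tested. The SE and adjusted p of every gene come from this fit unless another is named. The difference in response is the rim101 change since T0 minus the WT change. RPKM are not counts, so none of the tests is a count test. Depth was read from the step between low values. In the 3 WT libraries at T30 and rim101 replicate 2, 95.6% to 98.6% of these lay within 0.1 of a whole read. For rim101 replicate 1 the values were set against sums of its 2 step sizes, a denser grid, which 100% met. Its depth assumes an equal mean of 2 read sets. On simulated data the fit was checked before use. The simulation drew independent normal noise for each gene, without library types or 0s from failed estimates, so it does not cover these features. Alternatives were 2 other scalings, pseudocounts of 0.1 and 5, other filters, a replicate block, a library type term, the groups alone and leaving out libraries. Python 3.11.15 with matplotlib 3.10.9 drew the plots.

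RIM101 was named first. Then came the 14 most negative and 10 most positive differences among called genes with a mean of at least 10 RPKM, non-overlapping groups and a pass with both scalings (uncharacterized genes limited to 2 per direction), and up to 3 called members of each of 24 lists. The comparison, the lists and the rule were chosen with earlier results of these data known.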

Additional observations from a re-analysis of the deposited data

Results flagged for a closer look

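For the following genes the change from pH 5.5 to 30 min of pH 8.0 differed between the strains in a test of the difference itself (interaction term in limma, adjusted over all 4226 genes). Values are the rim101 change minus the WT change on the log2(RPKM + 1) scale, with n = 2 and n = 3 libraries per time. Where a group is listed at 0 the size depends on the pseudocount and is neither a fold nor a bound. The test uses the same T30 libraries as the direct comparison and is no independent evidence of it.

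Measured above 0 in every compared group were RIM101 at -1.76 (adjusted p = 0.015), PHO89 at -5.34 (adjusted p = 9.71e-05), YPS1-2 at -3.34 (adjusted p = 4.46e-07) and PAS_chr3_0017 at -2.32 (adjusted p = 0.018). In the same class were GAS1-2 at -2.01 (adjusted p = 0.000193), GAS1-1 at 3.02 (adjusted p = 4.37e-05), PHO84-1 at 8.06 (adjusted p = 2.93e-05) and FTR1 at 4.03 (adjusted p = 0.0363). In each of these the direction was that of the difference at 30 min.

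Listed at 0 in both rim101 libraries at T30 were ZRT1 at -5.48 (adjusted p = 0.0342), ZPS1 at -7.36 (adjusted p = 0.000267), MIT1 at -6.46 (adjusted p = 6.36e-05) and FET4-1 at -4.50 (adjusted p = 9.7e-05). The neighbours PAS_chr4_0359 at -7.19 (adjusted p = 0.00096) and PAS_chr4_0363 at -6.07 (adjusted p = 0.00237) belong with them. Listed at 0 in all 3 WT libraries at T30 were FRE3 at 8.60 (adjusted p = 8.41e-11), FRE2-1 at 6.99 (adjusted p = 9.15e-06), PHO84-2 at 6.66 (adjusted p = 2.13e-08), PAS_chr2-1_0270 at 5.53 (adjusted p = 0.00234) and PAS_chr1-4_0410 at 3.55 (adjusted p = 0.000746).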

How the results depend on the processing

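The direction of each of the 29 named genes held in every alternative run, and 21 to 29 of them passed. The genes lost in each were, for a pseudocount of 0.1, BUB3 and NHA1, for a pseudocount of 5 TMA10, and for the library type term SEO1-1; with the lower-median WT libraries left out they were FTR1, BUB3, PAS_chr1-4_0370, SEO1-1, TMA10 and GAP1 (adjusted p = 0.144, 0.152, 0.174, 0.447, 0.146 and 0.0708). Those lost without 1 library or on the 2 groups alone are named in the report. At T30, 37 genes were lower and 27 higher. The lower genes numbered 21 with the groups of the comparison only and 18 with the WT libraries of the lower-median type left out, and the higher genes 15 with the groups only and 43 with a pseudocount of 5. In total 64 became 36 and 37 in these fits. Leaving out 1 library gave 22 to 35 lower, 21 to 38 higher and 47 to 73 in total. With a replicate block the T30 counts were 42 lower and 29 higher (71 in total), and no named gene lost its call. The labels do not pair libraries by replicate number. Deviations of same-numbered WT and rim101 libraries at T30 from their group means correlated at 0.0474 and 0.164. With 2 rim101 libraries these deviations mirror each other, so the values cannot tell whether same-numbered libraries shared a batch or culture.

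The 5 genes called at T0 became 9 with quantile normalization, 11 and 0 with pseudocounts of 0.1 and 5, 10 with the library type term and 0 with the groups only (limma; 167 genes had an unadjusted p under 0.05), and 3 to 8 without 1 library. The 44 genes at T15 became 15 with the groups only and 31 to 65 without 1 library. The 65 at T60 became 13 with the groups only and 34 to 170 without 1 library. The 33 with a difference in response became 15 with the groups only, 19 with the lower-median WT libraries left out, and 21 to 38 without 1 library, lowest without rim101 T30 replicate 1. With median-ratio scaling and quantile normalization the genes with a difference in response numbered 23 and 27, against 33 unscaled. The median difference of all genes at T30, 0.41, turned to -0.0056 with quantile normalization, which sets the distributions equal, and was 0.24 to 0.59 without 1 library. Fits on fewer libraries have fewer degrees of freedom; other causes were not tested. Depth limits genes of a few reads, and a listed 0 is not shown to be a lack of expression.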
